A study of Mus musculus with 4 samples.

Results

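The genes described here are 35 transcripts of blood vessel lining, connective tissue and extracellular matrix, read in mouse spleen cells sorted as marginal zone macrophages. They were chosen by name, 15 as endothelial and 20 as stromal or matrix genes, and every probe whose only gene symbol is a listed name was taken. Of the 35, 34 were on the array, with 70 of its 45281 probes (28 endothelial and 42 stromal), and Thy1os was not named in the annotation used here. Expression was measured on 4 single-colour bead arrays from BXD2 mice, a recombinant inbred strain that develops lupus-like autoimmunity. One array came from BXD2-Ifnar-/- mice, which lack the type I interferon receptor, given PBS. Another came from BXD2 mice given 25 µg per mouse of sLTβR-Fc, a soluble decoy for lymphotoxin, by the intravenous route. The remaining 2 arrays came from BXD2 mice given PBS and served as controls. All mice were 2.5 months old and were killed 10 hours after the injection, and each array held cells pooled from 2 mice. The Ifnar-/- and sLTβR-Fc groups thus have 1 array each, mice treated with an Fc protein alone were not analysed here, and precision is limited by the number of arrays. The comparisons ask how the RNA of these sorted cells differs with loss of the interferon receptor and with a lymphotoxin decoy.

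Endothelial cells line the vessels and sinuses of the spleen, and fibroblastic reticular cells build the collagen, laminin and proteoglycan mesh on which macrophages sit. Endothelial identity rests on VEGF and angiopoietin receptors, which take up growth and survival signals, and on junction proteins that hold the cells together. Stromal cells secrete fibrillar collagens and small leucine-rich proteoglycans, while basement membranes are built from type IV collagen, laminin and nidogen. The sorting gate took SIGN-R1+ cells that had little CD11b and stained for neither F4/80 nor I-Ab, and it names no endothelial or stromal marker. In an array of pooled cells, fewer cells of a type and less RNA per cell cannot be told apart.

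The arrays themselves differed in brightness. Each array had 52.5% to 53.8% of its probes above its own background, with upper quartiles of the deposited intensities of 156 on the Ifnar-/- array, 146 on the sLTβR-Fc array and 188 and 179 on the PBS arrays. Values in the text are intensities after quantile normalisation between arrays, and background was not taken off, so that differences of dim genes are understated. Across the tested probes the PBS arrays correlated at r = 0.992, and 44 probes differed by 2-fold or more within that pair. The other pairs of arrays had 369 to 576 such probes each. Cd209b, which encodes the sorted SIGN-R1, read 152 on the Ifnar-/- array, 145 on the sLTβR-Fc array and 127 and 130.1 on the PBS arrays. A dimmer Cd209b probe, above background on 2 arrays, read 167 on the Ifnar-/- array, 112 on the sLTβR-Fc array and 110 and 101 on the PBS arrays, and was called higher on the Ifnar-/- array (log2 0.66 ± 0.09, adjusted p = 4.53e-07). The sort marker thus differed between the arrays on that probe, and its part in the results was not tested. Marco, a scavenger receptor of the same macrophages, read 181 on the Ifnar-/- array, 168 on the sLTβR-Fc array and 252 and 162 on the PBS arrays.

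Most of the members were dim. Of the 34 genes, 25 had a probe above background on all 4 arrays (14 of 15 endothelial and 11 of 19 stromal), 7 on 1 to 3 arrays only, and 2 on none. The 2 were Lyve1, a hyaluronan receptor of lymphatic endothelium, and Col1a1, a chain of type I collagen. The genes above background on only some arrays were Col6a1 and Col6a2, chains of type VI collagen, Fn1 (fibronectin), Lum (lumican), Pdgfrb (a PDGF receptor), Pdpn (podoplanin) and Lama4 (a laminin chain). By probe, 20 of 70 were above background on no array, with values between 94.3 and 110.0. A further 18 probes, above background on 1 to 3 arrays, ranged from 96.7 to 129.7, and none of them passed the test in any comparison. The 50 probes above background on at least 1 array were tested with all 24055 such probes of the table, and 32 of them were above background on all 4 arrays. PBS array 2 read lower than PBS array 1 for 17 of 18 tested stromal genes and 9 of 14 tested endothelial genes, against 47.2% of all genes, with medians of -0.12 and -0.020 on the log2 scale.

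**Figure D1:**
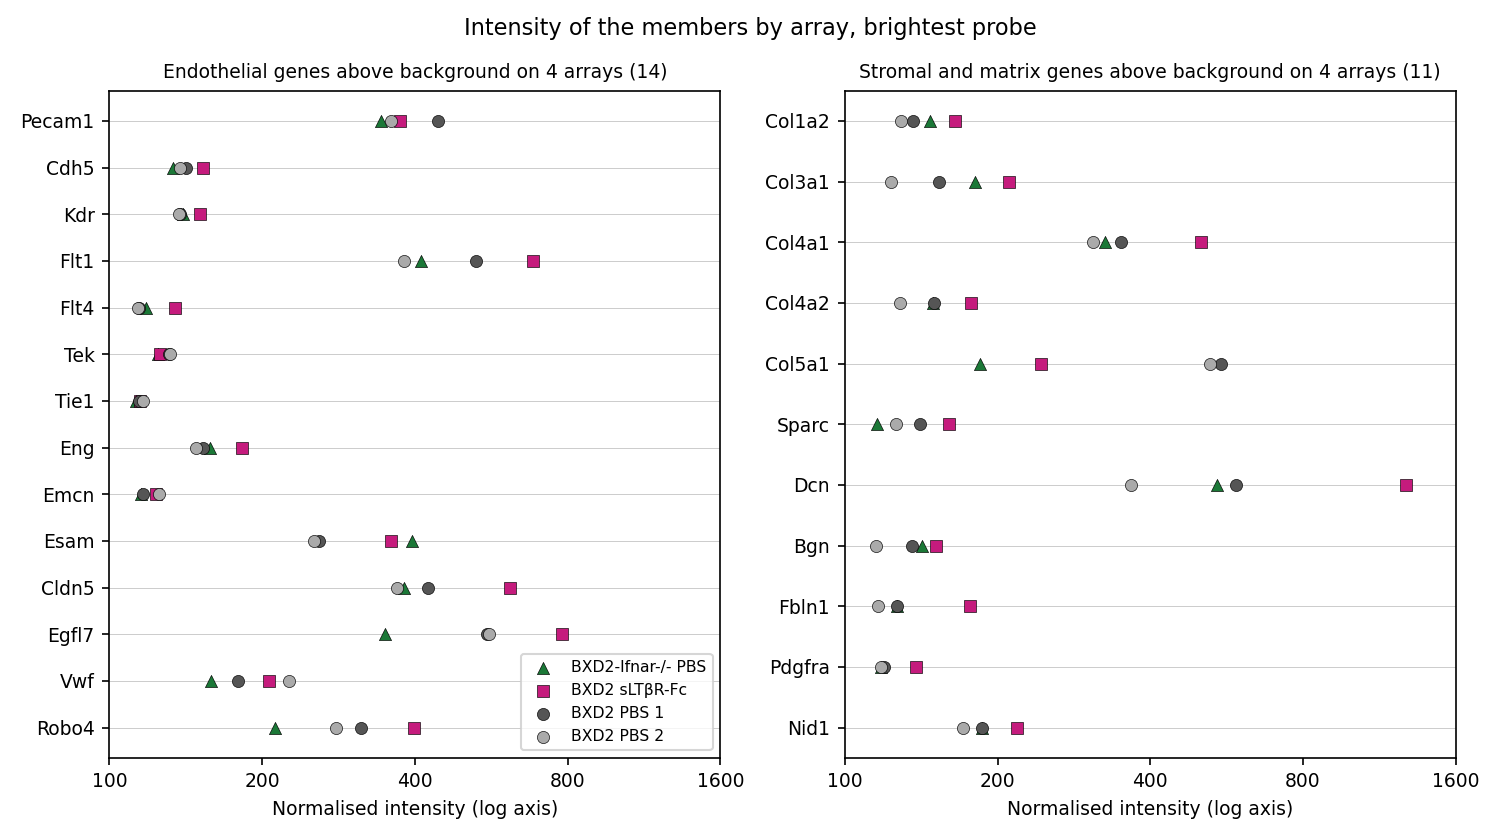
Normalised intensity (log axis) of the 25 members above background on all 4 arrays, 1 point per array, for the brightest probe of each gene. The sLTβR-Fc array is the highest of the 4 for 8 of 14 endothelial and 10 of 11 stromal genes, against 32.9% of all 10778 genes above background on all 4 arrays, and Col5a1 is the exception among the stromal genes.

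On the sLTβR-Fc array the matrix genes Dcn, Col3a1, Fbln1, Col4a1, Col4a2 and Col1a2 and the endothelial genes Cldn5 and Flt1 were higher than on the PBS arrays, and the matrix gene Col5a1 was lower. Differences ran from 1.24-fold to 2.74-fold for the higher genes, and Col5a1 stood at 0.453-fold. Of the 50 member probes tested, 8 were called higher and 1 lower by limma with Benjamini-Hochberg adjustment at 0.05. Over all probes tested, 13.0% were called, 6.44% higher and 6.54% lower. These calls depend on how the arrays are scaled: in the intensities as deposited, Dcn and Col5a1 were still called, while Cldn5, Col4a1 and Flt1 turned to -0.033, -0.044 and -0.066 on the log2 scale. The median of all probes was -0.19 there, and all 9 kept their side of that median. The split of all calls moved too, with 1549 higher and 1573 lower under quantile normalisation, 228 and 7522 as deposited, and 8346 and 2055 under median scaling.

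Dcn encodes decorin, a small leucine-rich proteoglycan that binds collagen fibrils. Its brightest probe read 1275 on the sLTβR-Fc array, against 591 and 367 on the PBS arrays (log2 difference 1.45 ± 0.23, SE of the fit, adjusted p = 8.31e-06). It was above both PBS arrays by more than 2-fold, the only member to be so, although those arrays themselves stood 0.69 apart on the log2 scale. Over all probes, 0.752% were higher by this rule. A second Dcn probe read 137 on the sLTβR-Fc array and 123 and 124 on the PBS arrays (log2 0.15 ± 0.10, adjusted p = 0.348), and the other 2 probes were not above background. Under median scaling and as deposited the brightest probe of Dcn was less than 2-fold above PBS array 1. Lum, the neighbour of Dcn on chromosome 10 with no protein-coding gene between them and a related proteoglycan, stayed between 103 and 112 on the 4 arrays on its tested probe.

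The fibrillar collagens did not move as a group. Col3a1, the chain of type III collagen in reticular fibres, read 210.3 on the sLTβR-Fc array, against 154 and 123 on the PBS arrays (log2 0.61 ± 0.13, adjusted p = 0.000406). Its other probe was above background on 1 array only. Col1a2, a chain of type I collagen, read 165 on the sLTβR-Fc array, against 136 and 129 on the PBS arrays (log2 0.31 ± 0.11, adjusted p = 0.0429). Both genes lay above both PBS arrays. Col5a1, a chain of the type V collagen that starts fibril assembly, read 244 on the sLTβR-Fc array, against 551 and 525 on the PBS arrays (log2 -1.14 ± 0.18, adjusted p = 6.92e-06). Col5a1 is thus more than 2-fold below each PBS array, as were 0.391% of all probes, and it has a single probe, so no second one checks it.

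Of the basement membrane genes Col4a1, Col4a2, Nid1 and Lama4, the type IV collagen chains passed the test. Col4a1, a chain of type IV collagen, read 503 on the sLTβR-Fc array, against 349.8 and 308 on the PBS arrays (log2 0.61 ± 0.19, adjusted p = 0.0212). Col4a2, which encodes its partner chain and adjoins Col4a1 on chromosome 8, read 177 on the sLTβR-Fc array, against 150.2 and 129 on the PBS arrays (log2 0.35 ± 0.11, adjusted p = 0.032). Fbln1, a matrix glycoprotein of the fibulin family, read 177 on the sLTβR-Fc array, against 126 and 117 on the PBS arrays (log2 0.54 ± 0.10, adjusted p = 0.000127). For these 3 genes the sLTβR-Fc value of the brightest probe was above every other array. Other tested Fbln1 probes, above background on 2 and 1 arrays, lay at -0.0077 and -0.019 (adjusted p = 0.969 and 0.916). Nid1, the laminin linker nidogen, read 218 on the sLTβR-Fc array, against 186 and 171 on the PBS arrays (log2 0.29 ± 0.13, adjusted p = 0.151). Its second probe went the other way, with 111 on the sLTβR-Fc array and 123 and 123 on the PBS arrays (log2 -0.14). Lama4 read 105 on the sLTβR-Fc array, where it was not above background, and 127 and 122 on the PBS arrays (adjusted p = 0.0557).

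The other stromal members did not pass the test. Bgn (biglycan, a proteoglycan of the decorin family) read 151 on the sLTβR-Fc array, against 136 and 115 on the PBS arrays (log2 0.27 ± 0.11, adjusted p = 0.0791). Sparc, a collagen-binding matrix protein, read 161 on the sLTβR-Fc array, against 141 and 126 on the PBS arrays (log2 0.27 ± 0.10, adjusted p = 0.0748). Another Sparc probe had the opposite sign (log2 -0.09). Pdgfra, a PDGF receptor of mesenchymal cells, read 138 on the sLTβR-Fc array, against 119 and 118 on the PBS arrays (log2 0.22 ± 0.09, adjusted p = 0.112).

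Among the endothelial genes, the receptors were considered first. Flt1, a receptor for VEGF that also occurs as a soluble trap, read 685 on the sLTβR-Fc array, against 527 and 381 on the PBS arrays (log2 0.61 ± 0.21, adjusted p = 0.0468). The PBS arrays stood 0.47 apart, and the difference was 0.85 without PBS array 1 and 0.38 without PBS array 2. Kdr, the main signalling receptor for VEGF, read 151 on the sLTβR-Fc array, against 138 and 137 on the PBS arrays (log2 0.14 ± 0.10, adjusted p = 0.442). Flt4, the receptor of lymphatic endothelium, read 135 on the sLTβR-Fc array, against 115 and 114 on the PBS arrays (log2 0.24 ± 0.09, adjusted p = 0.067). Tek, the angiopoietin receptor, and its relative Tie1 read 126 and 115 on the sLTβR-Fc array. Tek read 131 and 132 on the PBS arrays and Tie1 read 114 and 117, so that both differed by less than 0.1 on the log2 scale. Eng (endoglin, a co-receptor for TGF-β family ligands) read 183 on the sLTβR-Fc array, against 153 and 148 on the PBS arrays (log2 0.28 ± 0.12, adjusted p = 0.113).

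Of the junction genes, Cldn5, the tight junction claudin of endothelium, read 617 on the sLTβR-Fc array, against 425 and 368 on the PBS arrays (log2 0.64 ± 0.20, adjusted p = 0.0248). Esam, an endothelial and platelet adhesion molecule, read 359 on the sLTβR-Fc array, against 259 and 254 on the PBS arrays (log2 0.49 ± 0.17, adjusted p = 0.0547). Cdh5, which encodes VE-cadherin, read 153 on the sLTβR-Fc array, against 141 and 138 on the PBS arrays (log2 0.13 ± 0.11). Pecam1, which encodes CD31 of endothelium, platelets and leukocytes, read 373 on the sLTβR-Fc array, between the PBS arrays at 445 and 359. Of these 4 genes only Cldn5 passed the test. Egfl7, a secreted factor of endothelium, read 778 on the sLTβR-Fc array, against 556 and 559 on the PBS arrays (log2 0.48 ± 0.21, adjusted p = 0.128). Robo4, an endothelial guidance receptor, read 398 on the sLTβR-Fc array, against 313 and 279.9 on the PBS arrays (log2 0.43 ± 0.17, adjusted p = 0.0919). Emcn (endomucin) and Vwf (von Willebrand factor) read 123 and 206 on the sLTβR-Fc array. Their PBS values were 116 and 125 for Emcn and 179 and 226 for Vwf, so that both lay within the PBS range.

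**Figure D2:**
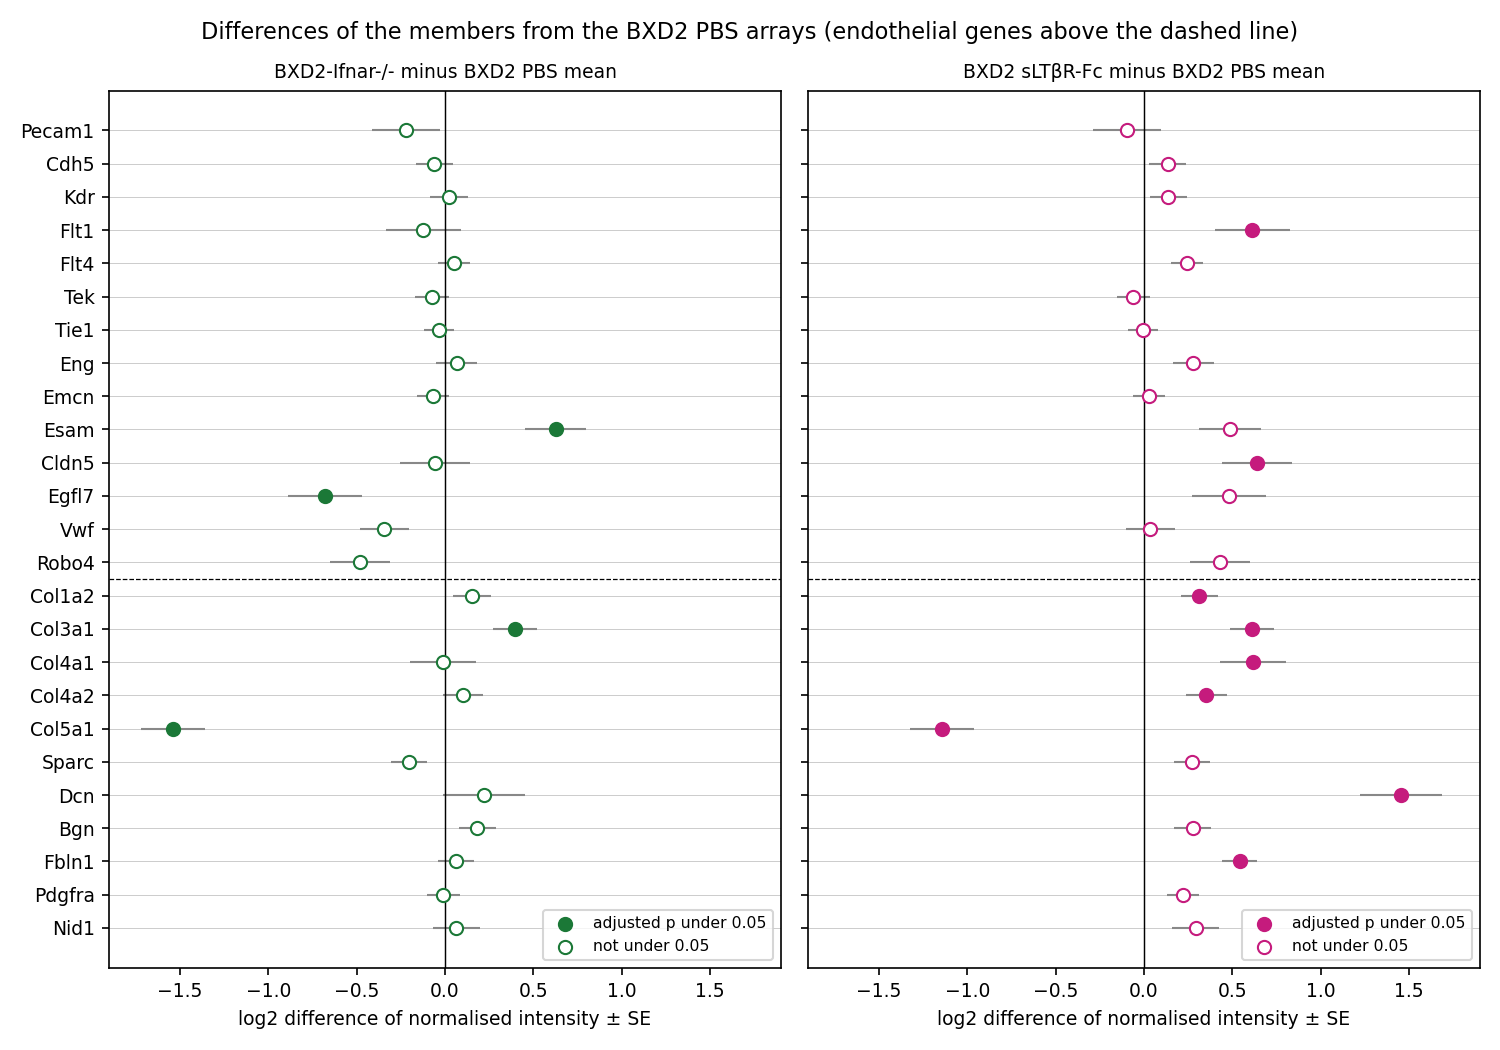
Log2 difference from the mean of the PBS arrays (x axis, bars show the SE of the fit) for the 25 members above background on all 4 arrays, with the Ifnar-/- array on the left and the sLTβR-Fc array on the right. Filled points have an adjusted p under 0.05, and Col5a1 is the lowest member in both panels, at -1.54 and -1.14.

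The promoters of 3 members called higher on the sLTβR-Fc array are given here because their 250 bases before the start lie outside every annotated gene and hold a searched motif. They are from RefSeq (GRCm38.p6), 5′ to 3′, and capitals mark the motif TATAAA, the motif CCAAT or the motif GGGCGG on either strand, so that on the other strand CCAAT reads ATTGG and GGGCGG reads CCGCCC.
Cldn5 (chr16:18776597-18776846, plus strand): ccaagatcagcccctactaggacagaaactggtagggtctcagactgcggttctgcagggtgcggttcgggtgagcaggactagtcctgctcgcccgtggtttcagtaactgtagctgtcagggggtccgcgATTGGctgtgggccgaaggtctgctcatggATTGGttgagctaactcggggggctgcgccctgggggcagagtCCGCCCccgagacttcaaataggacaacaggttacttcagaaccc
Col1a2 (chr6:4505368-4505617, plus strand): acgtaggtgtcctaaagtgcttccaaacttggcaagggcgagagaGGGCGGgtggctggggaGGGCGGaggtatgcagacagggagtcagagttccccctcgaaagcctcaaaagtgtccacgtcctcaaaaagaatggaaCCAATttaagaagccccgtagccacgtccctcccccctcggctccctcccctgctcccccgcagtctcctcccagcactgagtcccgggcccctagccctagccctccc
Col3a1 (chr1:45311288-45311537, plus strand): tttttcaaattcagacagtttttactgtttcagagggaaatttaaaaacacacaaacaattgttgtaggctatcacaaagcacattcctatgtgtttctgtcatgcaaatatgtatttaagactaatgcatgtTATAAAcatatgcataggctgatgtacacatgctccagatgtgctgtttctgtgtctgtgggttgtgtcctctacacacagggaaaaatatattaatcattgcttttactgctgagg
Of the 25 members above background on all 4 arrays, 20 had a promoter in the RefSeq table, 23 windows in all, whether or not they overlapped a gene or held a motif. CCAAT was in 26.1% of these windows against 33.9% of all 32841 windows of the same length, GGGCGG in 47.8% against 32.7%, and TATAAA in 8.70% against 12.4%. A tandem of GGAA with any pair of bases between the copies was in 0 of the 23 windows and in 2.79% of all windows. The motifs do not overlap one another in the windows shown, and Cldn5 and Col1a2 hold both CCAAT and GGGCGG, whereas Col3a1 holds TATAAA.

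On the Ifnar-/- array 4 members differed from the PBS arrays. Col3a1 and Esam were higher, by 1.31-fold and 1.54-fold, and Egfl7 and Col5a1 were lower, at 0.625-fold and 0.344-fold. These are 4 of 50 member probes, 2 in each direction. As deposited, 6 member probes were called, 0 higher and 6 lower. Over all probes, limma called 11.0%, with 5.26% higher and 5.71% lower, so the share of members called was near the background. In the intensities as deposited the calls of all probes split into 331 higher and 3429 lower, against 1266 and 1373 after quantile normalisation.

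Col5a1 read 185 on the Ifnar-/- array, against 551 and 525 on the PBS arrays (log2 -1.54 ± 0.18, adjusted p = 1.27e-08). It lay more than 2-fold below each PBS array, as did 0.752% of all probes. Col5a1 was called lower, and Col3a1 higher, on both the Ifnar-/- and the sLTβR-Fc array, and these comparisons share their controls. The log2 difference of Col5a1 between the Ifnar-/- and sLTβR-Fc arrays, whose fold does not use the controls, was -0.40 ± 0.21 (adjusted p = 0.279). Col3a1 read 181 on the Ifnar-/- array, against 154 and 123 on the PBS arrays (log2 0.39 ± 0.13, adjusted p = 0.0313). As deposited its difference was 0.20 with an adjusted p of 0.353, and it was 0.55 without PBS array 1 and 0.23 without PBS array 2. Col1a2 read 147 on the Ifnar-/- array, against 136 and 129 on the PBS arrays (log2 0.15 ± 0.11, adjusted p = 0.448). Dcn, at 542 on the Ifnar-/- array, lay between the PBS values of 591 and 367, and Fbln1, at 127, lay close to the higher PBS value of 126. Col4a1 and Col4a2, at 325 and 149 on the Ifnar-/- array, also lay within the PBS ranges.

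Egfl7 read 349 on the Ifnar-/- array, against 556 and 559 on the PBS arrays (log2 -0.68 ± 0.21, adjusted p = 0.0251). It was lower under every scaling tried, from -0.98 as deposited to -0.68. A second Egfl7 probe read 147 on the Ifnar-/- array, against 170.4 and 165 on the PBS arrays (log2 -0.19 ± 0.12, adjusted p = 0.395), with the same sign and a smaller size. Robo4 read 212 on the Ifnar-/- array, against 313 and 279.9 on the PBS arrays (log2 -0.48 ± 0.17, adjusted p = 0.0581), below both but short of the threshold. Esam, which lies near Robo4 on chromosome 9 with 2 protein-coding genes between them, read 395 on the Ifnar-/- array, against 259 and 254 on the PBS arrays (log2 0.63 ± 0.17, adjusted p = 0.0112). As deposited, the Esam difference was 0.35 with an adjusted p of 0.213. Vwf read 158 on the Ifnar-/- array, against 179 and 226 on the PBS arrays (log2 -0.34 ± 0.14, adjusted p = 0.112). Flt1, Cldn5 and Kdr, at 411, 381 and 139 on the Ifnar-/- array, differed from the PBS mean by -0.12, -0.06 and 0.02 on the log2 scale. Pecam1 read 343 on the Ifnar-/- array, against 445 and 359 on the PBS arrays (log2 -0.22 ± 0.19), and its second probe had the opposite sign (log2 0.29 ± 0.10, adjusted p = 0.0549).

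Set directly against the sLTβR-Fc array, without the controls, the Ifnar-/- array was lower for 5 members and 6 of their probes and higher for 1 probe. Limma called 7.97% of all probes in this comparison, 4.01% lower and 3.96% higher. Dcn read 542 on the Ifnar-/- array, against 1275 on the sLTβR-Fc array (log2 -1.23 ± 0.27, adjusted p = 0.00129). Egfl7 read 349 and 147 on the Ifnar-/- array on its 2 brighter probes, against 778 and 208 on the sLTβR-Fc array, and both were called (log2 -1.16 ± 0.24 and -0.50 ± 0.14, adjusted p = 0.000745 and 0.0175). No other member had more than 1 probe called in this comparison. Robo4 read 212 on the Ifnar-/- array, against 398 on the sLTβR-Fc array (log2 -0.91 ± 0.20, adjusted p = 0.00122). Fbln1 and Sparc were lower by a smaller size, at -0.48 ± 0.12 and -0.47 ± 0.12 (adjusted p = 0.00507 and 0.0064). Another Sparc probe, above background on all 4 arrays, lay at 0.064 ± 0.11 (adjusted p = 0.815). The dimmer tested Fbln1 probes lay at -0.11 and 0.0039 and were not called. The second Pecam1 probe was the higher one, with 159 on the Ifnar-/- array, against 123 on the sLTβR-Fc array (log2 0.37 ± 0.12, adjusted p = 0.0383), while the brightest Pecam1 probe lay at -0.12 ± 0.22. Cldn5, Flt1 and Col4a1 lay at -0.70, -0.74 and -0.63 with adjusted p of 0.0504, 0.0525 and 0.0623, all just short of the threshold. As deposited, none of these 7 calls was kept by limma, although all kept their sign. The error in this comparison comes from the PBS pair, mostly as its spread over all tested probes, since neither group has a second array.

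Over the list, the endothelial members had median log2 differences from the PBS mean of -0.063 in the Ifnar-/- group and 0.19 in the sLTβR-Fc group, over the 14 tested genes and 1 probe each. The stromal and matrix members lay at 0.062 and 0.25 over 18 tested genes. Without PBS array 1 these stromal medians were 0.090 and 0.29, and without PBS array 2 they were -0.014 and 0.17, so the sign in the Ifnar-/- group turned with 1 control. The medians over all 14756 tested genes were 0.015 and 0.018. Over all member genes on the array, with no filter on background, the endothelial medians were -0.061 and 0.14 and the stromal medians 0.060 and 0.22. On the sLTβR-Fc array 9 of 14 endothelial genes lay above both PBS arrays and 1 below both, and 12 of 18 stromal genes lay above both and 4 below both. Of all genes, 43.8% lay above both and 35.6% below both. On the Ifnar-/- array 4 endothelial genes lay above both and 8 below both, and 8 stromal genes lay above both and 5 below both, where 42.8% and 35.1% of all genes did so. As deposited, the endothelial median on the sLTβR-Fc array turned to -0.10 and the stromal median fell to 0.012, against a median of -0.19 over all probes. The gap between the PBS arrays, -0.12 for the stromal list, was larger than the stromal difference on the Ifnar-/- array.

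**Figure D3:**
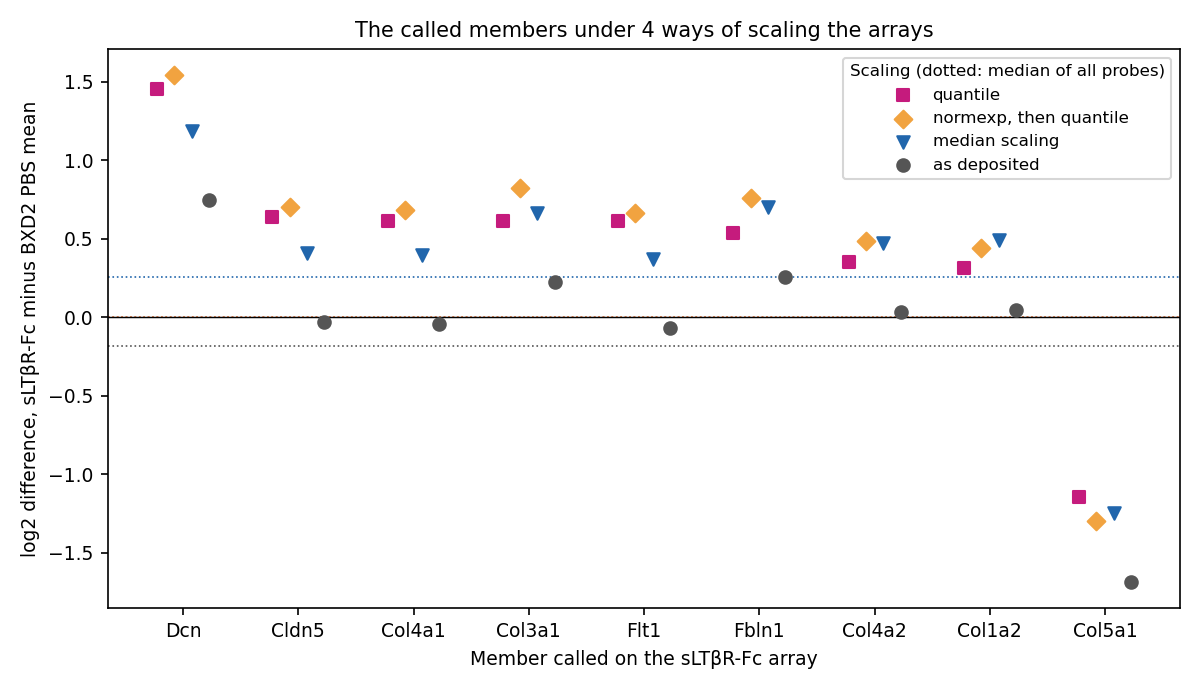
Log2 difference between the sLTβR-Fc array and the mean of the PBS arrays (y axis) for the 9 members called there, under 4 ways of scaling the arrays, with dotted lines at the median of all probes under each. Cldn5, Col4a1 and Flt1 lie just below 0 in the intensities as deposited, where the median of all probes is -0.19, while Dcn stays above 0 and Col5a1 below it under all 4.

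Other genes of vessels and matrix, listed by name, were read on the same arrays. Of 18 tested companion endothelial genes, 5 were called higher and 0 lower on the sLTβR-Fc array by their brightest probe, where limma called 7.87% of all genes higher and 6.01% lower. The 5 were Stab1, Stab2, Cav1, Adgrl4 and Plvap. Stab1, a scavenger receptor of sinusoidal endothelium and of some macrophages, read 943 on the sLTβR-Fc array, against 488 and 361 on the PBS arrays (log2 1.17 ± 0.21, adjusted p = 4.64e-05). Stab2, its endothelial relative, read 487 on the sLTβR-Fc array, against 402 and 237 on the PBS arrays (log2 0.66 ± 0.21, adjusted p = 0.033). Cav1, the caveolae protein caveolin, read 345 on the sLTβR-Fc array, against 176 and 177 on the PBS arrays (log2 0.97 ± 0.14, adjusted p = 1.76e-06). Nrp1, a co-receptor for VEGF and semaphorins, had the opposite sign on its 3 probes, at -0.38, -0.56 and -0.85. The dimmest of these read 248.95 on the sLTβR-Fc array, against 431 and 468 on the PBS arrays, and was called lower (log2 -0.85 ± 0.18, adjusted p = 0.000853). Adgrl4, an adhesion receptor of vessels, and Plvap, a protein of fenestral diaphragms, lay at 0.79 and 0.51 (adjusted p = 8.49e-05 and 0.0426).

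On the Ifnar-/- array 1 of these 18 companion genes was higher and 3 were lower, against 5.89% and 6.12% of all genes. Stab2, at 551 on the Ifnar-/- array, was the higher one (log2 0.84 ± 0.21, adjusted p = 0.00544). Vcam1, an adhesion molecule, read 235 on the Ifnar-/- array, against 1344 and 486 on the PBS arrays (log2 -1.78 ± 0.28, adjusted p = 8.14e-06), with the PBS arrays far apart. Stab1 read 240.0 on the Ifnar-/- array, against 488 and 361 on the PBS arrays (log2 -0.81 ± 0.21, adjusted p = 0.00539). Selp, the P-selectin gene of endothelium and platelets, read 162 on the Ifnar-/- array, against 233 and 232 on the PBS arrays (log2 -0.52 ± 0.15, adjusted p = 0.013). By its brightest probe Stab1 therefore lay on opposite sides of the PBS arrays in the Ifnar-/- and sLTβR-Fc groups. Stab2 lay on the same side in both. Dimmer Stab1 probes had the same signs as the brightest. They were not called on the Ifnar-/- array, at -0.15 and -0.072 (adjusted p = 0.472 and 0.747). On the sLTβR-Fc array they lay at 0.57 and 0.28 (adjusted p = 0.0002 and 0.0505). Set directly against the sLTβR-Fc array, 7 of the 18 companion genes were lower on the Ifnar-/- array and 0 higher, against 5.12% and 3.91% of all genes. That difference was -1.97 for Stab1 (adjusted p = 2.18e-08) and 0.18 for Stab2 (adjusted p = 0.755). The other genes lower in it were Vcam1, Adgrl4, Selp, Cav1, Ptprb, a phosphatase that acts on angiopoietin receptors (log2 -1.01, adjusted p = 0.00512), and Ramp2, part of the adrenomedullin receptor (log2 -0.60, adjusted p = 0.0383).

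Of 21 tested matrix assembly genes, 1 was called higher on the sLTβR-Fc array and 1 lower on the Ifnar-/- array, where 7.87% and 6.12% of all genes were. The higher one was Hspg2, the basement membrane proteoglycan perlecan, with 194 on the sLTβR-Fc array, against 152 and 147 on the PBS arrays (log2 0.38 ± 0.12, adjusted p = 0.0274). A second Hspg2 probe gave 0.43 (adjusted p = 0.0101). The lower one was Mmp14, a membrane collagenase, with 174 on the Ifnar-/- array, against 272 and 230 on the PBS arrays (log2 -0.52 ± 0.15, adjusted p = 0.0154). Timp3, a matrix-bound protease inhibitor, was lower on the Ifnar-/- than on the sLTβR-Fc array (log2 -0.52, adjusted p = 0.0253). Of 11 reticular and mural cell genes, Acta2, Des and Cxcl13 were higher on the sLTβR-Fc array, against 7.87% of all genes, and none was called on the Ifnar-/- array by its brightest probe. Des, the muscle and reticular cell filament desmin, read 165 on the sLTβR-Fc array, against 128 and 125 on the PBS arrays (log2 0.38 ± 0.10, adjusted p = 0.0072). Cxcl13, the B cell homing chemokine of follicular stroma, read 139 on the sLTβR-Fc array, against 111 and 104 on the PBS arrays (adjusted p = 0.00211), and was above background on 2 of the 4 arrays. Acta2, smooth muscle actin, differed by 0.32 (adjusted p = 0.0321) on its brightest probe and by -0.021, 0.067 and -0.033 on the other 3, the brightest of which was higher on the Ifnar-/- array (log2 0.38, adjusted p = 0.00533).

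Among the growth factor ligands, Vegfa, which signals through Kdr and Flt1, read 528 in the Ifnar-/- cells and 841 in the sLTβR-Fc cells, against 357 and 335 on the PBS arrays. Both differences passed (log2 0.61 ± 0.20 and 1.28 ± 0.20, adjusted p = 0.0414 and 7.34e-06), and its second probe passed in both as well, at 0.39 and 0.54. Pdgfa and Pdgfb, ligands of the PDGF receptors, were higher on the Ifnar-/- array (log2 0.41 ± 0.10 and 0.48 ± 0.12, adjusted p = 0.00299 and 0.00526). Pdgfa was dim, at 150 on the Ifnar-/- array against 123 and 104 on the PBS arrays, and above background on 3 arrays. A second Pdgfb probe, above background on 2 arrays, did not pass (log2 0.14, adjusted p = 0.332). By their brightest probe, 3 of 11 tested ligand genes were called higher in the Ifnar-/- group (5.89% of all genes) and 1 in the sLTβR-Fc group (7.87% of all genes), and the difference between these counts was not tested. Vegfc, a ligand of Flt4, was higher on the Ifnar-/- than on the sLTβR-Fc array (log2 0.53, adjusted p = 0.0022).

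Markers of other cells moved between the same arrays. Their counts called are by the brightest probe of each gene. Of all genes, limma called 5.89% higher and 6.12% lower on the Ifnar-/- array. On the sLTβR-Fc array it called 7.87% higher and 6.01% lower. Marginal zone macrophage markers had 4 tested genes. They summed to 708 on the Ifnar-/- array, 635 on the sLTβR-Fc array and 689 and 551 on the PBS arrays. Neutrophil markers summed to 15765 on the Ifnar-/- array, 56961 on the sLTβR-Fc array and 45798 and 31309 on the PBS arrays. Their median log2 difference on the sLTβR-Fc array was 0.48, and the genes disagreed. Elane, S100a8 and Mpo were called higher there, at 2.51, 0.93 and 0.52. Camp, Ngp, Ltf and S100a9 were not called, at -0.27, -0.20, 0.0044 and 0.48. For B cell markers the sums were 20651 on the Ifnar-/- array, 9200 on the sLTβR-Fc array and 13893 and 13495 on the PBS arrays. Platelets also carry Vwf, Pecam1, Esam, Selp and Sparc. The summed level of platelet markers over 9 tested genes was 1734 on the Ifnar-/- array, 2794 on the sLTβR-Fc array and 2040 and 3523 on the PBS arrays, and that of Pf4, a platelet chemokine, was 473 on the Ifnar-/- array, 1258 on the sLTβR-Fc array and 777 and 1883 on the PBS arrays. The eosinophil sum over 5 genes was 4308 on the Ifnar-/- array, 27933.5 on the sLTβR-Fc array and 5076 and 5768 on the PBS arrays, with a median log2 difference of 2.60 on the sLTβR-Fc array. Mast cell and basophil markers, 5 of 5 called higher on that array, lay at a median of 1.51 there. Their median gap between the PBS arrays was 0.77. On the Ifnar-/- array their median was -0.065, and Mcpt8 and Prss34 were called lower, at -1.64 and -1.49. Cpa3, Fcer1a and Ms4a2 were not called there, at -0.065, 0.31 and 0.23. On the Ifnar-/- array neutrophil markers lay at -2.00 with 7 of 7 called lower, dendritic cell markers at 1.03 with 4 of 5 called higher, and B cell markers at 0.54 with 3 of 5 called higher. Some marker lists had medians below the PBS mean in both groups. T cell markers had medians of -0.50 (Ifnar-/-) and -0.68 (sLTβR-Fc), with 2 and 4 of 7 called lower. Erythroid markers had -1.05 and -0.49, with 2 and 1 of 3 called lower, but their median gap between the PBS arrays was larger, at -1.38. The erythroid factor Klf1 read 380 on the Ifnar-/- array, 409 on the sLTβR-Fc array and 1137 and 898 on the PBS arrays. Klf1 was thus below both PBS arrays in both groups, as Col5a1 was. The T cell genes Cd3d, Cd3g and Lat and the platelet gene Gp5 were so too. Such a position was common, held by 35.1% of all genes in the Ifnar-/- comparison and 35.6% in the sLTβR-Fc comparison. Hba-a1 and Alas2 lay between the PBS arrays on the sLTβR-Fc array, and Alas2 did so on the Ifnar-/- array too. B cell markers were at -0.48 on the sLTβR-Fc array, with 2 of 5 called lower. Digestive enzyme genes of pancreatic acinar cells summed to 18320 on the Ifnar-/- array, 577 on the sLTβR-Fc array and 3530 and 8289 on the PBS arrays. The part of these cells in the differences of the vessel and matrix genes was not tested.

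**Figure D4:**
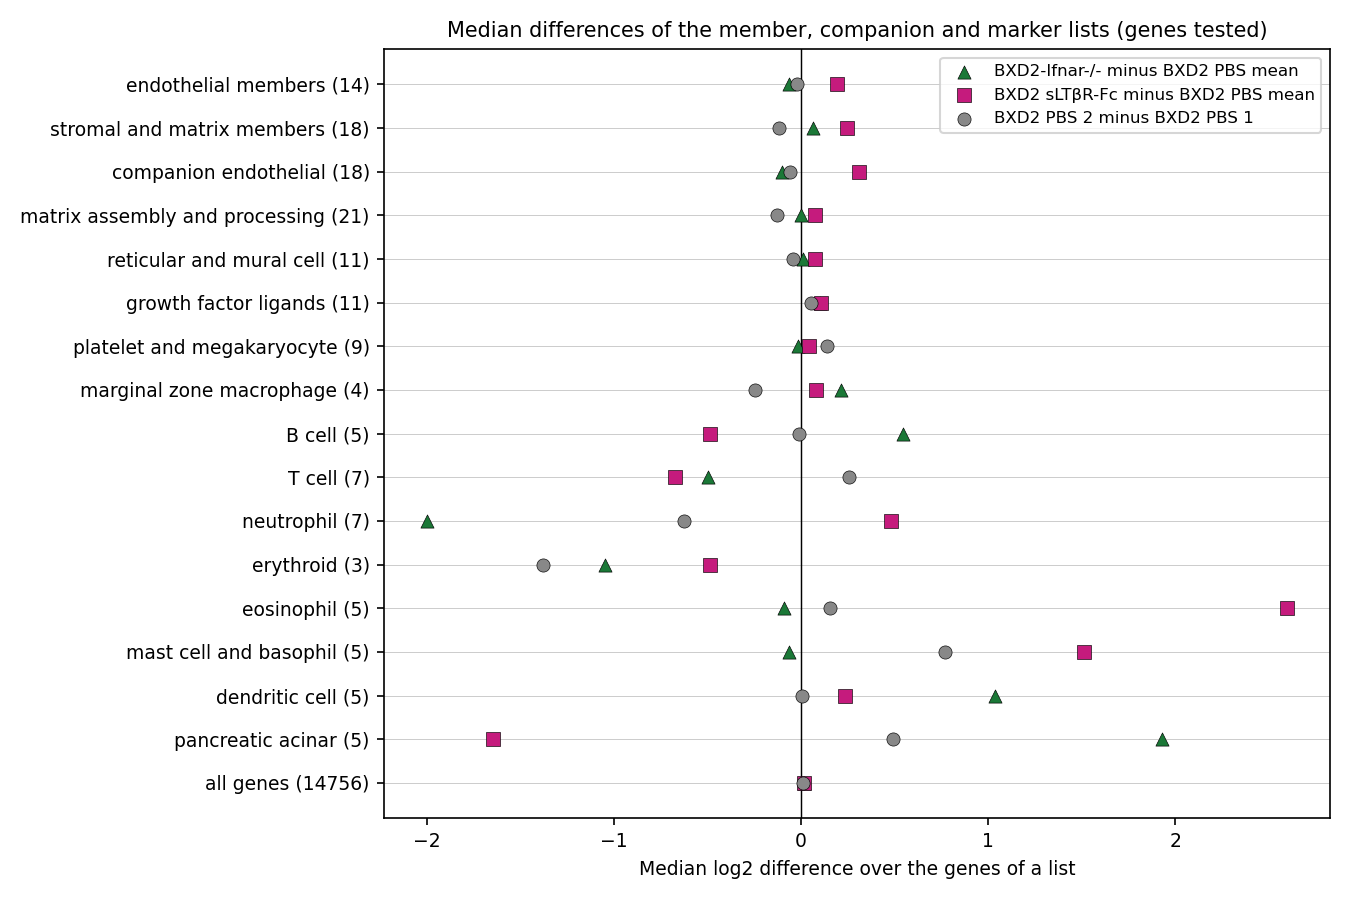
Median log2 difference (x axis) of each list over its tested genes (number in brackets), for the Ifnar-/- and sLTβR-Fc arrays against the PBS mean, with the gap between the PBS arrays beside them. The endothelial and stromal members lie within 0.25 of 0 in both, while eosinophil markers reach 2.60 on the sLTβR-Fc array and neutrophil markers -2.00 on the Ifnar-/- array.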

How the data were processed

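Biotin-labelled cRNA was made from Trizol-extracted RNA of the sorted macrophages, per the labels' protocols, and read on single-colour bead arrays. GenomeStudio 2011.1 is named in the submitters' processing notes. The values are the linear intensity of each probe and array as deposited by the authors. How background and scale were handled before deposit is not stated in the labels, and the values show neither step. A probe counted as above background past the 95% point of the noise, mirrored about that mode. The limits were 106 (Ifnar-/-), 108 (sLTβR-Fc), and 113 and 115 (PBS).

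Of 45281 probes, 34885 have 1 gene symbol, 18 several and 10378 none. All 34 members on the array kept their symbol in the RefSeq gene table (GRCm38.p6). Intensities were quantile normalised and converted to log2 with no floor, since values tied at a floor have no spread. The 24055 probes with 1 symbol above background on at least 1 array entered 1 limma fit (limma 3.58.1, R 4.3.3). It took 3 group means with a mean-variance trend. The fit was also run on simulated data in which all arrays varied like the PBS pair. That run could not check whether the lone arrays do so. Benjamini-Hochberg adjustment ran over all tested probes. Only the PBS pair gives a residual degree of freedom (1). Each lone array is taken to vary like that pair. The labels do not say whether the PBS arrays came from separate animals, so the spread behind the p-values may be technical. The prior of the fit held 45.4 degrees of freedom against that 1, so each SE and p-value rests mainly on the trend over all probes. A probe's own gap between the PBS arrays adds little to them. A rule of size counts a probe at least 2-fold from each PBS array in 1 direction.

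The members and all lists were chosen with earlier results of these data known. A member is given on every array where a probe is above background on all 4 arrays, or passes limma or the rule of size. Companion genes outside the set are named where they pass limma or that rule, and marker genes beside the results they accompany. List medians take the brightest probe of each gene, by its mean. Alternatives were other scalings, normexp background correction (offset 50), a floor, other filters, no trend, 1 probe a gene and leaving out each PBS array.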

Additional observations from a re-analysis of the deposited data

How the results depend on the processing

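Counts of probes called depended mainly on the floor, the variance trend and the scaling. With values raised to a floor of 111, limma called 0 probes in each comparison, with lowest adjusted p of 0.198 (Ifnar-/- against PBS), 0.162 (sLTβR-Fc against PBS) and 0.168 (Ifnar-/- against sLTβR-Fc), since tied values leave a prior of 0.859 degrees of freedom against 45.4. Without the trend it called 1395, 1321 and 769 probes, against 2639, 3122 and 1918, and member probes called were 3, 1 and 2. In the sLTβR-Fc comparison it called 7750 probes as deposited and 10401 under median scaling, of 24055 tested in each. With 1 probe a gene it called 2010, of 14756 tested. Member probes called there, of 50 tested, were 5 (1 higher, 4 lower) as deposited, 27 (26 higher) under median scaling and 0 with the floor. Members called with the floor were also 0 in the other comparisons, and 0 as deposited between the lone arrays. Without the trend, Col5a1 was the only member called on the sLTβR-Fc array. By the rule of size 1 member remained there as deposited and under median scaling, Col5a1.

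As deposited, Cldn5, Col4a1 and Flt1 reversed on the sLTβR-Fc array, to -0.033, -0.044 and -0.066. The endothelial median on the Ifnar-/- array was -0.22 as deposited, 0.035 under median scaling and -0.095 after normexp, and between -0.074 and -0.044 without a PBS array. On the sLTβR-Fc array it was -0.10, 0.34 and 0.28, then 0.14 with no filter, 0.13 over all probes of the list and between 0.20 and 0.22 without a PBS array. Between the lone arrays it was -0.11, -0.30 and -0.28, and -0.12 over all probes. The stromal median on the Ifnar-/- array was -0.086 as deposited, 0.17 under median scaling and between -0.014 and 0.090 without a PBS array. On the sLTβR-Fc array it was 0.012, 0.45 and 0.35 after normexp, 0.10 over all probes, and between 0.17 and 0.29 without a PBS array. Between the lone arrays it was -0.073 as deposited and -0.092 over all probes. The causes were not tested. Of 130 member differences not called, 85 changed sign under at least 1 setting and 31 were called under at least 1. No test was possible without a PBS array, as no residual degree of freedom is left. No paired analysis was possible because the groups share only replicate number 1, and 2 of the 3 groups have 1 array.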
